A study of Mus musculus with 6 samples.

Results

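Globins and other red cell genes were followed in prospective lens tissue of mouse embryos with and without Pax6, the paired-domain transcription factor needed to form a lens. The 8 listed genes were the globins Hba-a1, Hba-x, Hbb-bh1 and Hbb-y, the haem synthesis gene Alas2, and the blood transcription factors Gata1, Tal1 and Klf1. Every probe with 1 of these symbols in the platform annotation was taken, which gave 8 probes for 7 of the 8 genes among 46632 probes, which name 17711 genes in all. No probe was named Hbb-y in that annotation, so Hbb-y was not analysed here. Of the 8 probes, 5 passed the filter on dim signals (a detection p-value under 0.05 on at least 3 of the 6 arrays), 1 each for Hba-a1, Hba-x, Hbb-bh1, Alas2 and Tal1. The rule used gene symbols alone and no measured value, but the list of members was chosen with earlier results of these data known.

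The groups were 3 Pax6-/- embryos, whose tissue is labelled surface ectoderm, and 3 wild type embryos, whose tissue is labelled lens placode, all of a mixed FVB and 129 background at embryonic day 9.5. The labels name no Cre, transgene or deleted exon for the Pax6-/- genotype. Frozen sections of 10 micrometres were laser-microdissected, 15 ng of RNA from both eyes of 1 embryo was amplified to cDNA, and each embryo was hybridised to 1 position of a single Illumina BeadChip. Embryos are named here knockout 1 to 3 and wild type 1 to 3 after their labels, and each embryo is 1 replicate.

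Haemoglobin is built from alpha-type and beta-type globin chains, each holding a haem group made in a pathway that begins with 5-aminolevulinate synthase. The red cells that circulate in the mouse embryo at this stage are mainly primitive cells from the yolk sac. They use the embryonic chains Hba-x (zeta), Hbb-bh1 (beta-H1) and Hbb-y (epsilon-y) beside Hba-a1, whereas the adult beta chains belong mainly to later, definitive red cells. GATA1, TAL1 and KLF1 bind GATA, E-box and CACCC sequences and switch on globin and haem genes in red cell precursors. The lens placode itself is an epithelium without vessels, while the mesenchyme around it is vascularised.

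Knockout 1 stood apart from the other arrays. Its median raw signal was 41.7, against 47.3 to 49.8 on the other 5, and its score on the leading principal component (30.2% of the variance) was -64.1, against -1.55 to 31.2. It also stood more than 1 log2 unit above every other array for 355 probes (0.761%), against 66 to 164 probes for each of the others. Between 38.8% and 41.6% of probes were detected per array. Pax6 itself, by its brightest probe, averaged 9.31 ± 0.31 in knockout and 10.05 ± 0.33 in wild type on the normalized log2 scale (SD, n = 3 each), a log2 change of -0.74 that did not pass (limma adjusted p = 0.448). Because the deleted part of Pax6 is not named, this probe may lie outside it and checks nothing about the labels. The lens gene Maf was far lower in knockout (log2 change -3.86, SE 0.30, limma adjusted p = 0.00390), and of 13 lens placode and surface ectoderm markers that passed the filter 10 were lower in knockout. All 13 were detected on all 6 arrays, while Foxe3, Pitx3 and Sox1 were detected on none. Xist, the X-inactivation RNA, was detected on 0 of 3 knockout and 3 of 3 wild type arrays, and the Y-linked Kdm5d on 3 of 3 knockout and 0 of 3 wild type arrays, so by these genes a difference between genotypes cannot be told apart from a difference between sexes. The other Y-linked genes split less cleanly. Eif2s3y read 6.94 to 7.32 in knockout and 5.05 to 5.28 in wild type, where it was detected on 2 of 3 arrays, and Uty read 7.25 to 8.92 in knockout, against 4.83, 6.56 and 4.85 in wild type 1 to 3, with wild type 2 detected.

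The embryonic globins varied more between embryos than almost any other gene on the array, and their level did not follow genotype cleanly. They were brightest in knockout 3 and knockout 2 and dimmest in wild type 3, with knockout 1, wild type 1 and wild type 2 in between. Of the 5 testable red cell probes 3 were higher and 2 lower in knockout, against 49.4% higher among the 19381 probes tested. None of the 5 passed the limma test after adjustment, against a background of 0.0929% of all probes (0.0361% higher and 0.0568% lower in knockout). Before adjustment the p was below 0.05 for 2 of the 5, Hba-a1 and Hba-x, against 7.22% of all probes. On none of the 5 did the genotypes separate fully, whereas over all probes the knockout arrays were all above the wild type arrays for 5.54% and all below for 6.47%. In bulk tissue, fewer red cells and less globin RNA per cell cannot be told apart.

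**Figure D1:**
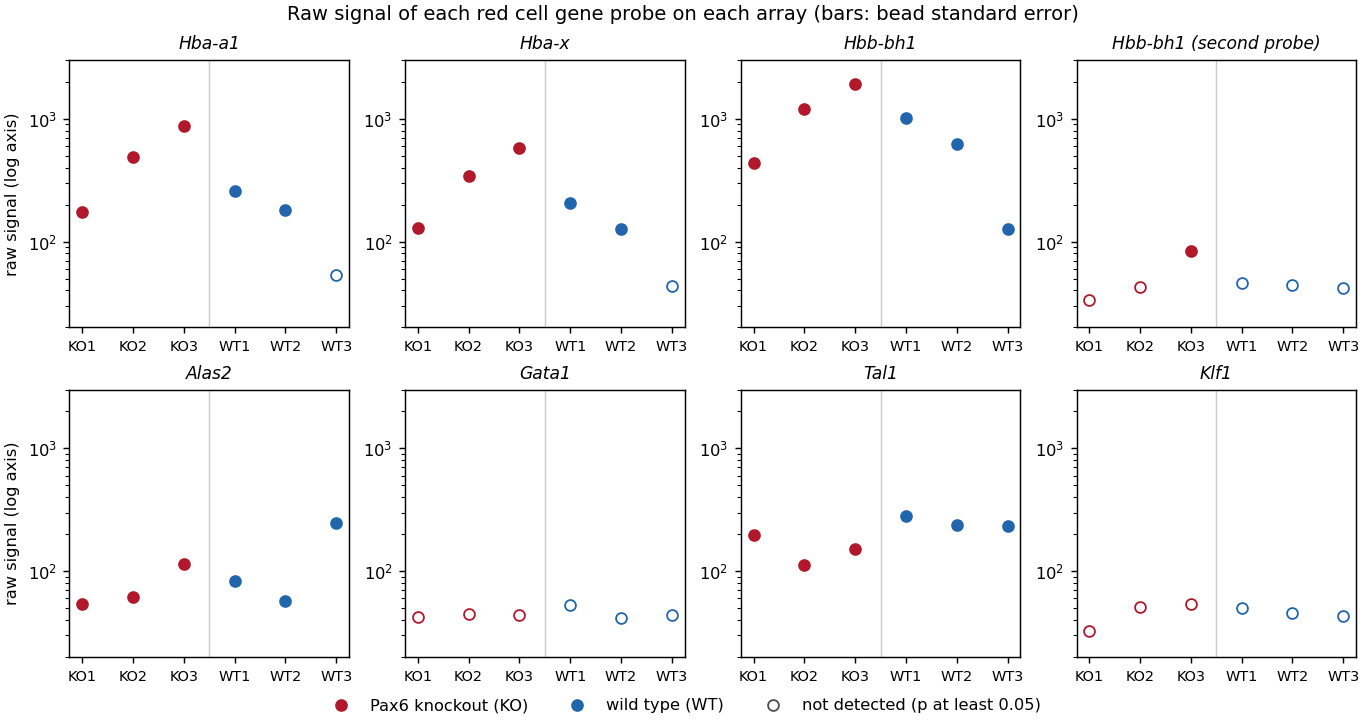
Raw signal (log axis) of the 8 probes of 7 red cell genes on each of 3 knockout (red) and 3 wild type (blue) arrays, with open symbols where the detection p-value was at least 0.05 and bars, mostly smaller than the symbols, for the bead standard error. The 3 brighter globin probes are highest on knockout 3 and lowest on wild type 3, Alas2 is highest on wild type 3, and Gata1 and Klf1 are open on all 6 arrays.

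Hba-a1 encodes the alpha globin chain that is used from the embryo through to the adult. It read 7.48, 8.89 and 9.71 in knockout 1 to 3, against 7.80, 7.14 and 5.08 in wild type 1 to 3 (normalized log2 intensity). Knockout 2 and 3 lay above every wild type array, knockout 1 lay between wild type 1 and wild type 2, and on wild type 3, where the detection p-value was 0.0742, the probe was not detected. The log2 change was 2.02 (SE 0.73, 95% confidence interval 0.35 to 3.68), which corresponds to 4.04-fold, and it did not pass (limma adjusted p = 0.592, unadjusted p = 0.0232). The difference between knockout 3 and knockout 1, 2.23, was larger than this difference between genotypes, and so was that between wild type 1 and wild type 3 (at least 2.65, since the probe was not detected on wild type 3).

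Hba-x, the embryonic zeta chain, followed Hba-a1 closely. Its values were 6.93, 8.34 and 9.08 in knockout 1 to 3, against 7.44, 6.52 and 4.90 in wild type 1 to 3 (normalized log2 intensity). The arrays fell in the same order as for Hba-a1, and wild type 3, with a detection p-value of 0.238, was again not detected. The log2 change was 1.83 (SE 0.70, 95% confidence interval 0.24 to 3.42) and did not pass (limma adjusted p = 0.625, unadjusted p = 0.0286). Because both alpha-type probes were undetected in wild type 3, the span between the extremes is a lower bound, and knockout 3 was at least 23.4-fold above wild type 3 for Hba-a1 and at least 15.3-fold for Hba-x.

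Hbb-bh1, the embryonic beta-H1 chain, was detected on all 6 arrays by the brighter of its 2 probes. It read 8.95, 10.26 and 10.83 in knockout 1 to 3, against 9.82, 9.10 and 6.50 in wild type 1 to 3 (normalized log2 intensity). Knockout 1 lay below wild type 1 and wild type 2, so the genotypes overlapped. The log2 change was 1.54 (SE 0.79, 95% confidence interval -0.25 to 3.33, limma adjusted p = 0.767), and between wild type embryos alone the raw signal spanned 7.92-fold, with 1010, 618 and 128 in wild type 1 to 3. The dimmer probe was detected on knockout 3 alone, at 5.76 against 4.82 to 4.93 on the other 5 arrays. That probe was dropped by the filter. Its lack of detection outside knockout 3 does not show absence there, since the brighter probe was detected on all 6 arrays. Whether the dimmer probe performs poorly was not tested.

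Without wild type 3 the log2 change was 1.22 for Hba-a1, 1.14 for Hba-x and 0.55 for Hbb-bh1, all still higher in knockout. The mean of the 3 globins on each array was 7.78, 9.16 and 9.87 in knockout 1 to 3, against 8.35, 7.59 and 5.49 in wild type 1 to 3, or 8.94 ± 1.06 in knockout and 7.14 ± 1.48 in wild type (SD, n = 3 each). Knockout 1, the array that stood apart, had a lower mean than wild type 1, and without it the log2 change was 2.62 for Hba-a1, 2.42 for Hba-x and 2.07 for Hbb-bh1. The part of array quality in these values was not tested.

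**Figure D2:**
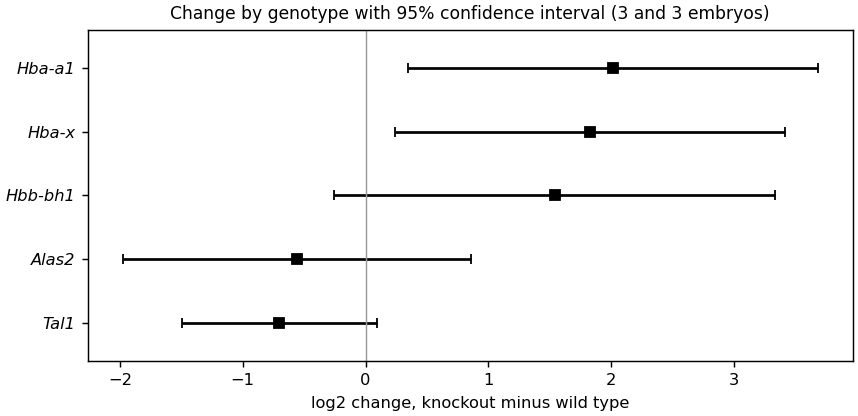
Log2 change of the 5 testable red cell probes, knockout minus wild type, with 95% confidence intervals from the limma fit (3 embryos per genotype). The intervals of Hba-a1 and Hba-x lie above 0 before adjustment for multiple testing, and those of Hbb-bh1, Alas2 and Tal1 include 0.

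Each probe was averaged over 25 to 54 beads per array, and the bead standard error was 2.90% to 6.55% of the signal for the 5 probes. That error covers the averaging of beads alone, and the error of dissection and of RNA amplification was not measured apart from the difference between embryos. Between embryos of 1 genotype, the SD of Hbb-bh1 was 1.41 on the log2 scale, that of Hba-a1 1.28 and that of Hba-x 1.19, against a median of 0.33 over all 19381 probes. A smaller SD was found for 99.9% of probes in the case of Hbb-bh1, 99.8% for Hba-a1 and 99.6% for Hba-x. Restricted to probes within 0.5 log2 units of the same mean intensity, the shares were 99.9%, 99.7% and 99.2%. Alas2 also varied widely, with an SD of 1.03 and 99.1% of probes below it, whereas Tal1, at 0.50, had 76.4% of probes below it.

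**Figure D3:**
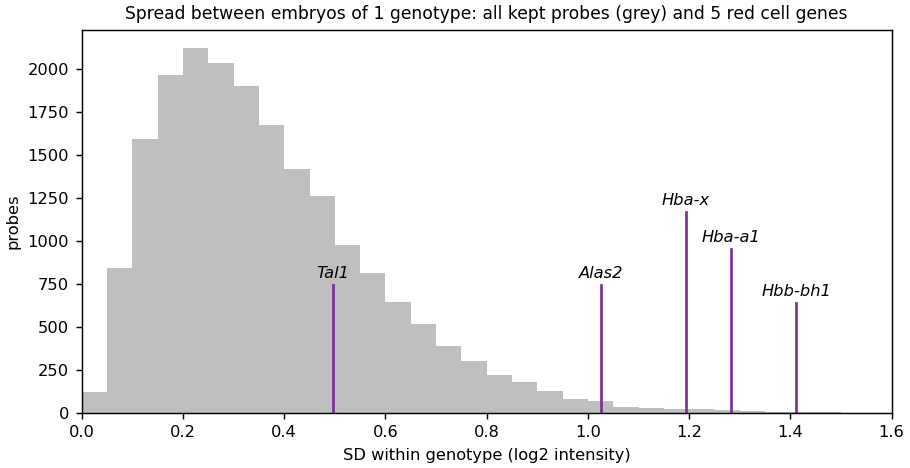
Histogram of the SD between embryos of 1 genotype (log2 intensity) over the 19381 probes that passed the filter, with lines at the values of 5 red cell genes whose heights carry no meaning. The globins lie at 1.19 to 1.41 and Alas2 at 1.03, in the far right tail, and Tal1 lies at 0.50 inside the bulk.

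The 3 globins moved together from embryo to embryo, although alpha-type and beta-type genes lie on different chromosomes (11 and 7). Over the 6 arrays Hba-a1 and Hba-x had a Pearson correlation of 0.997 (exact permutation p = 0.00139, the smallest that 6 arrays can give, adjusted over 10 gene pairs 0.00926) and a Spearman correlation of 1.00 (exact permutation p = 0.00278). Hba-a1 and Hbb-bh1 had a Pearson correlation of 0.976 (exact permutation p = 0.00278, adjusted 0.00926) and a Spearman correlation of 0.943 (exact permutation p = 0.0167, adjusted 0.0556). For Hba-x and Hbb-bh1 the values were 0.969 and 0.943, with the same adjusted p-values by exact permutation. Without knockout 3 and wild type 3, the 2 arrays farthest from the median, the Pearson correlations of the 3 pairs were 0.991, 0.904 and 0.931, and after subtraction of each genotype's mean they were 0.994, 0.985 and 0.971. Of the 19381 probes, 39 (0.201%) had the array order of Hba-a1 and Hba-x, with those 2 probes among them. The 6 arrays can be ordered in 720 ways, so this share is not unusual for a single order. It adds nothing to the correlations. The members were chosen with earlier results of these data known, so the permutation p-values of the pairs are descriptions.

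The promoters of the pair that moved most closely, as given by RefSeq for the build GRCm38.p6 (250 bases before to 50 after the gene's start, 5′ to 3′), are shown with capitals at matches, on either strand, to CCAAT, to CACCC and to a GATA hexamer (AGATAA or AGATAG or TGATAA or TGATAG). No match overlaps another. The table of promoters held 7 of the 8 genes. The Hba-a1 promoter (chr11:32283422-32283721, plus strand) has 1 CCAAT, 2 CACCC and 1 GATA match, and the Hba-x promoter (chr11:32276350-32276649, plus strand) has 0 CCAAT, 2 CACCC and 2 GATA matches.
Hba-a1: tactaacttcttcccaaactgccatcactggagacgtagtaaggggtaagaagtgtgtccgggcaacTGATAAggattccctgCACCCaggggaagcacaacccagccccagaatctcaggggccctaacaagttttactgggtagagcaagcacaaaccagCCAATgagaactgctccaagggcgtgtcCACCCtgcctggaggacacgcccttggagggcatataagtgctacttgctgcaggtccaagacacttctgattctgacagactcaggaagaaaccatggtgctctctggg
Hba-x: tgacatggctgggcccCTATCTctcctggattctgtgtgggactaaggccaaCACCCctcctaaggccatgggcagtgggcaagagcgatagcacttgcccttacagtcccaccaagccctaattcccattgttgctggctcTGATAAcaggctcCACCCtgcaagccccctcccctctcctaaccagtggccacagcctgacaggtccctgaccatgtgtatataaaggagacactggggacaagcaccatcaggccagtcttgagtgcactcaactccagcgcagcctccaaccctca
Such letters are common: of 32851 promoters of 300 bases in the table, 37.4% hold a CCAAT, 57.5% a CACCC and 29.8% a GATA hexamer. A match is a description of these letters and not a measured binding site.

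**Figure D4:**
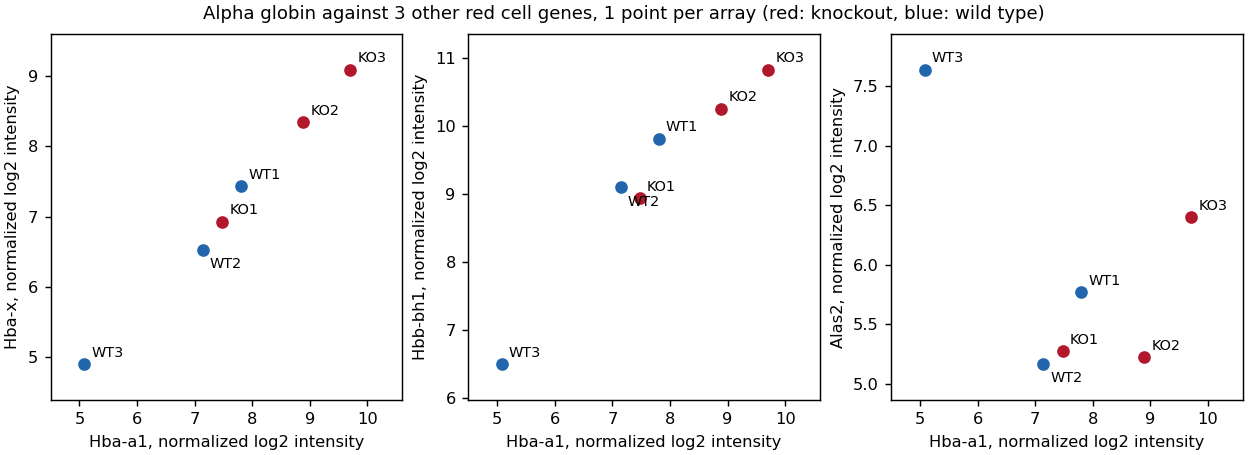
Normalized log2 intensity of Hba-a1 (horizontal) against Hba-x, Hbb-bh1 and Alas2 (vertical), 1 labelled point per array, knockout in red and wild type in blue. Hba-x and Hbb-bh1 are higher on arrays where Hba-a1 is higher, while Alas2 is highest on wild type 3, where Hba-a1 is lowest.

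Alas2 encodes the red cell form of 5-aminolevulinate synthase, the first enzyme of haem synthesis, and lies on the X chromosome. It read 5.27, 5.22 and 6.40 in knockout 1 to 3, against 5.77, 5.16 and 7.64 in wild type 1 to 3 (normalized log2 intensity), and was detected on all 6 arrays. The highest value was that of wild type 3, the embryo with the lowest embryonic globin mean, and it was 5.56-fold above wild type 2. The next highest was knockout 3, the embryo with the highest embryonic globin mean. The log2 change of -0.56 (SE 0.62, 95% confidence interval -1.98 to 0.86, limma adjusted p = 0.929) turned to 0.16 without wild type 3. Over the 6 arrays its Pearson correlation with Hba-a1 was -0.496 (exact permutation p = 0.324, adjusted 0.421) and its Spearman correlation -0.0286 (exact permutation p = 1.00), and without knockout 3 and wild type 3 the Pearson correlation was 0.0169, so the inverse relation rests on those arrays.

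The promoter of Alas2 (chrX:150547167-150547466, plus strand, from the same table) is shown because its gene did not follow the globins. It has 0 CCAAT, 3 CACCC and 1 GATA match, with the CACCC matches next to each other on the opposite strand.
Alas2: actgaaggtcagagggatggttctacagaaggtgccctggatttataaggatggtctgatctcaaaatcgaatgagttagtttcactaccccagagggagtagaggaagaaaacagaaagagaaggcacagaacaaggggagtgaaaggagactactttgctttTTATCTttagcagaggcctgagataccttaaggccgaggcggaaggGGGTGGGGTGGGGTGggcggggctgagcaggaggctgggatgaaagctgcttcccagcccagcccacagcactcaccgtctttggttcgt
The kinds of match found in it, CACCC and GATA, are the same as in Hba-x.

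Of the blood transcription factors, Tal1 was the only member detected. TAL1 is a basic helix-loop-helix factor needed to form blood cells, and it is also used in endothelium and in some neurons. It read 7.70, 6.36 and 6.93 in knockout 1 to 3, against 7.92, 7.61 and 7.56 in wild type 1 to 3 (normalized log2 intensity). Knockout 2 and 3, the arrays with the highest embryonic globin means, had the least Tal1, and knockout 1 lay within the wild type range. The log2 change was -0.70 (SE 0.35, 95% confidence interval -1.50 to 0.10). It did not pass (limma adjusted p = 0.755), and without knockout 2 it was -0.38. Across the 6 arrays the Pearson correlation of Tal1 with Hba-a1 was -0.586 (exact permutation p = 0.228, adjusted 0.384).

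Gata1, an X-linked zinc finger factor of the GATA family, and Klf1, the CACCC-binding factor that activates beta globin, were not detected on any of the 6 arrays. Their raw signals were 42.6 to 44.9 in knockout and 42.0 to 53.0 in wild type for Gata1, and 32.7 to 54.1 in knockout and 43.2 to 50.1 in wild type for Klf1. Each has 1 probe, so the data do not separate a low level from a probe that performs poorly, and no change is given for either.

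The adult beta globins, from a list of the other globin genes, were bright in knockout 3 on several probes. The array has 11 probes for Hbb-b2, Hbb-bs and Hbb-bt, which encode adult beta chains and are so similar in sequence that a probe may read more than 1 of them. On 6 of the 11 probes, knockout 3 stood more than 1 log2 unit above the other 5 arrays, at 7.08 to 8.76, while the other 5 arrays read 4.76 to 5.47. Over all 46632 probes such a gap in favour of knockout 3 occurred for 0.285%, and no other array showed it for more than 1 of the 11 probes. The largest was that of an Hbb-bs probe, with 4.93, 5.47 and 8.76 in knockout 1 to 3, against 5.04, 5.46 and 4.83 in wild type 1 to 3. The Hbb-b2 probe read 5.20, 5.41 and 7.08 in knockout 1 to 3, against 5.28, 5.18 and 5.08 in wild type 1 to 3 (log2 change 0.71, SE 0.45, limma adjusted p = 0.836). This threshold of 1 was chosen after the values were seen. The 6 probes of these genes that passed the filter were not the same 6, and none of them passed the test. Of the probes with the gap, only that Hbb-bs probe and the Hbb-b2 probe passed the filter. The Hbb-bt probes with the gap were dropped by the filter and not tested. On the probes with the gap, many readings of the other 5 arrays were not detected.

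**Figure D5:**
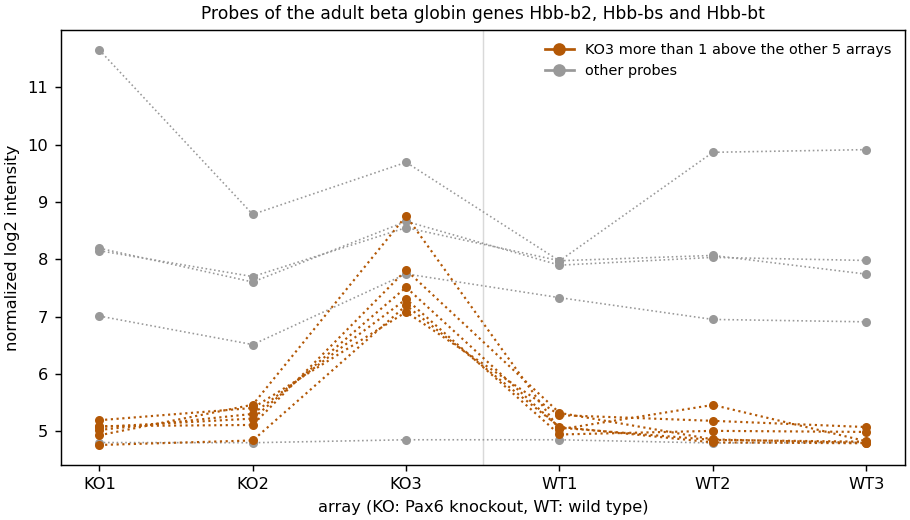
Normalized log2 intensity of the 11 adult beta globin probes on the 3 knockout and 3 wild type arrays, with dotted lines that only join the values of 1 probe. In brown are the 6 probes on which knockout 3 reads 7.08 to 8.76 and the other 5 arrays at most 5.47, and in grey the other 5, of which 1 Hbb-bs probe is highest on knockout 1.

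The other 5 probes of the same genes did not share this pattern. The brightest Hbb-bs probe read 11.65, 8.79 and 9.69 in knockout 1 to 3, against 7.97, 9.87 and 9.91 in wild type 1 to 3, so that it was highest in knockout 1, and 1 further Hbb-bs probe was not detected on any array. The remaining 3 were highest on knockout 3 by 0.40 to 0.47. Probes of 1 gene thus disagreed in level and order. On knockout 3 too, Hbb-bs probes read from 4.85 (not detected) to 9.69, so the level of adult beta globin is uncertain on every array. The theta-type genes Hbq1a and Hbq1b were not detected on any array.

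Red cell genes outside the 8 members were taken from lists by function, and none of them passed the limma test. Of the erythroid transcription factors and cofactors, 11 of 17 listed genes passed the filter, with 9 higher and 2 lower in knockout (median log2 change 0.21), 0 passing the limma test and 0 at an unadjusted p under 0.05. Over all probes the median was -0.0039, and 49.4% were higher in knockout. The GATA factor Gata2 (0.18, SE 0.23) and the TAL1 partner Lmo2 (0.27, SE 0.34) were detected on all 6 arrays, as was Klf3, a relative of Klf1 (0.38, SE 0.21, limma adjusted p = 0.791). Gfi1b, Lyl1, Nfe2 and Runx1, like Gata1 and Klf1, were detected on none.

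Genes of haem synthesis, transport and breakdown were split, with 6 of 11 higher and 5 lower (median log2 change 0.0037). Among iron uptake and erythropoietin signalling genes 8 of 10 were higher in knockout (median 0.13). Slc11a2, which carries iron across membranes, had a log2 change of 0.90 (SE 0.36, limma adjusted p = 0.647), and the transferrin receptor Tfrc one of 0.19 (SE 0.15). No member of either list passed the limma test. In the iron list 2 of 10 genes, Slc11a2 and Jak2, had an unadjusted limma p under 0.05, against 7.22% of all probes. Unlike Slc11a2, Jak2 was lower in knockout, where it was detected on 1 array only (log2 change -0.45, SE 0.19, limma adjusted p = 0.662).

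In the red cell membrane and skeleton list, 7 of 11 genes were higher in knockout (median log2 change 0.062) and 0 passed the limma test. Slc4a1, the band 3 anion exchanger of the red cell membrane, read 5.11, 6.99 and 7.17 in knockout 1 to 3, against 5.86, 5.56 and 4.96 in wild type 1 to 3. Knockout 2 and 3 were highest, as for the embryonic globins, and wild type 1 and 2 lay next (log2 change 0.96, SE 0.55, limma adjusted p = 0.80). Knockout 1 and wild type 3 were not detected and so have no order between them. Other genes of the list did not share this order. Add2 was lower in knockout, where it was detected on 1 array only (log2 change -0.50, SE 0.25, limma adjusted p = 0.755). Aqp1 was highest in wild type 3 and Cd59a in wild type 1. Sptb, the beta spectrin of red cells, was detected on 3 knockout and 0 wild type arrays by 1 of its 4 probes, so that it passed the filter through the knockout arrays alone and no fold is given, and its other 3 probes were detected on none. Of red cell enzymes and maturation genes, 2 of 7 were higher and 5 lower (median -0.31), with none at an unadjusted p under 0.05, and 8 with a probe, among them Car1, Bpgm and Hemgn, were detected on none.

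Markers of other blood and vessel cells passed the filter in a minority of genes, against 9618 of the 17711 genes named on the whole array. The share of endothelial genes given below is near that of the whole array. Of 12 platelet and megakaryocyte genes with a probe, 7 were detected on no array, Pf4 and Itga2b among them, and 3 passed the filter. The summed linear signal of those 3 was 128 to 277 in knockout and 97.6 to 171 in wild type. On knockout 1 and on wild type 2 only 1 of the 3 was detected, so these sums lie partly at background. Of 16 macrophage and white cell genes, 7 were detected on no array, including Ptprc, Spi1 and C1qa, and the 3 that passed summed to 248 to 357 in knockout and 119 to 304 in wild type. The brightest of these, Laptm5, read 7.25, 7.81 and 7.29 in knockout 1 to 3. In wild type 1 to 3 it read 7.54, 6.18 and 5.15 (log2 change 1.16, SE 0.55, limma adjusted p = 0.734). It was not detected on wild type 3, where the embryonic globins were lowest too. Coro1a was highest in knockout 1 and lowest in wild type 3 (log2 change 0.77, SE 0.38). Aif1 was highest in wild type 1 and was not detected on knockout 3 or wild type 2 (log2 change -0.18, SE 0.32). Of 18 endothelial genes 8 passed, with sums of 657 to 947 in knockout and 600 to 792 in wild type and the highest in knockout 2, while Cdh5, Tek and Tie1 were detected on none. No member of these 3 lists passed the limma test, and none had an unadjusted p under 0.05.

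Markers of the tissues next to the placode are given because they could be dissected along with it. Of 12 head mesenchyme genes 9 were higher in knockout (median log2 change 0.13), with sums of 2062 to 2452 in knockout and 1694 to 2253 in wild type. Of 10 optic vesicle genes 9 were higher in knockout (median 0.58), with sums of 1641 to 1963 in knockout and 971 to 1219 in wild type. Within knockout the optic vesicle sum was lowest in knockout 1, the knockout array with the lowest embryonic globin mean. Within wild type it was lowest in wild type 3, which also had the lowest embryonic globin mean. Wild type 2 (1219) lay above wild type 1 (1070), unlike for the embryonic globin mean. The head mesenchyme sum did not follow that mean within knockout. It was lowest in knockout 3 (2062), the array with the highest embryonic globin mean. Within wild type the head mesenchyme sum was lowest in wild type 3 (1694). Over all 19381 probes 49.4% were higher in knockout. None of these genes passed the limma test, before adjustment 7 of the 22 had a p below 0.05, against 7.22% of all probes, and the part of neighbouring tissue in the globin levels was not tested.

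The 5 genes most like the globins over the 6 arrays were on none of the red cell lists, but only genes detected on all 6 arrays were compared. This requirement left out Slc4a1, undetected on knockout 1 and wild type 3. Hba-a1 and Hba-x, undetected on wild type 3, would have failed it too. The absence of red cell genes is thus partly set by the requirement. Among 7489 named genes detected on all 6 arrays, 61 (0.815%) had a Pearson correlation above 0.9 with the globin mean and 46 (0.614%) one below -0.9, values that are descriptions over 6 arrays. The 5 highest were Rab3gap1 (0.985), Wdr75 (0.982), Zfp113 (0.976), Washc2 (0.976) and Fzd7 (0.973), and they spanned only 0.55 to 0.99 log2 units over the arrays, against 4.38 for the globin mean. The most inverse was Six3, a homeobox gene of lens and optic vesicle, named here after its values were seen (-0.995). Its brighter probe read 6.69, 6.16 and 5.94 in knockout 1 to 3, against 6.62, 6.91 and 7.67 in wild type 1 to 3, lowest in knockout 3 and highest in wild type 3, and its other probe was detected on 1 array only.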

How the data were processed

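Per the submitters' processing notes, signals came from GenomeStudio (version and settings: not given in the sources used here). Per the file headers, the deposited raw table gives each probe's mean bead intensity on a linear scale, the bead standard error, the count of beads averaged, and a detection p-value. The authors' second deposited table holds normalized, background-subtracted intensity (medians 7.49 to 7.51, lowest values -14.8 to -13.3) and served as an alternative.

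Genes were named from GEO's platform annotation (29976 of 46632 probes with 1 symbol, 10 with several, 16646 unnamed here), with symbols updated through 29921 Entrez identifiers in RefSeq's GRCm38.p6 table. Background was corrected by normexp, with negative controls inferred through the detection p-values (offset 16), and arrays were quantile normalized and brought to log2 (limma 3.58.1, R 4.3.3). The 19381 probes detected on 3 or more arrays (detection p below 0.05) were tested, with lmFit, eBayes with a variance trend and Benjamini-Hochberg adjustment at 0.05 over all of them. Correlations were tested with exact permutation of 6 arrays. An exact test of 3 against 3 cannot go below 0.10. The fit was tested on simulated data.

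The members and lists were chosen with earlier results of these data known. Named were every member probe, up to 4 genes with the smallest p of each other list where they bear on a member, and the 5 genes most like the globin mean. Gata2, Lmo2 and the undetected genes were named after their values were seen. A fold of at least N sets the brighter value against a floor, the dimmest detected probe of the array or the dim probe itself, whichever was higher. The number of arrays limits the precision. Replicate numbers did not pair the embryos. Alternatives covered the filter, background correction, normalization, variance model, array weights, probe summary, replicate block and leaving out each array.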

Additional observations from a re-analysis of the deposited data

How the results depend on the processing

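Each of the 5 testable red cell probes stayed on the same side of the threshold under every alternative that tested it, with 0 called each time. The log2 change stayed positive for Hba-a1 (1.22 to 2.62), Hba-x (1.14 to 2.42) and Hbb-bh1 (0.55 to 2.21) and negative for Tal1 (-1.05 to -0.38) under 18 alternatives each, and the lowest globin values came without wild type 3. Alas2 turned to 0.16 without wild type 3 and stayed negative under the other 16 alternatives (-1.07 to -0.31), while the stricter filter on dim probes dropped it. The globin mean was 1.79 higher in knockout, and 1.49 to 1.88 higher with other background corrections, median scaling or the authors' normalized table. The count of all probes called, 18, was 7 with no filter, 68 with the stricter filter, 28 with no background correction, 11 with median scaling, 31 with array weights, and 3 to 7 when 1 array was left out. With the replicate block it was 1, and same-numbered embryos did not deviate together (correlations -0.0465 to -0.0217), so the numbers do not pair the samples. The stricter filter tests fewer probes, no filter tests more, and each left-out array leaves fewer samples. For the other settings, which keep the same probes and arrays, the cause was not tested. Gata1, Klf1 and the dimmer Hbb-bh1 probe are at or near background, where signal limits what can be said.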
